A study of Mus musculus with 28 samples.

Results

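Ribosome-bound RNA of PV-Cre cells in the CA1 region of the hippocampus was compared between mice injected with kainic acid and mice injected with PBS. Kainic acid activates kainate-type glutamate receptors and provokes seizures. The libraries were found through the labels for Cre line, treatment and fraction: 4 anti-HA immunoprecipitates (IPs) after kainic acid and 4 after PBS, which are 8 of the 28 libraries of the series. All of these mice were C57BL/6, 3 to 4 weeks old and of the genotype PV-Cre/+; LSL-Rpl22-HA/+, in which Cre recombinase under the parvalbumin (PV) gene removes a stop cassette so that the ribosomal protein Rpl22 carries an HA tag. Tissue was collected 6 h after kainic acid. The labels give 6 h for PBS too, whereas the names of the deposited columns place those libraries earlier. The interval between PBS and collection is therefore not known here. Each library came from the pooled CA1 of 9 to 10 mice and from 2.5 ng of RNA that was amplified before sequencing, so the unit of replication is the pool. The tag stays in any cell in which Cre has acted, whatever its PV level at collection. For comparison the text uses the lysate before the IP of the same PV-line pools (input, 4 libraries per treatment) and the IP of CaMK2a-Cre/+; LSL-Rpl22-HA/+ mice of the same strain and age (3 libraries per treatment, pools of 4 mice, 20 ng of RNA).

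PV interneurons are inhibitory cells that fire fast, brief action potentials and contact the cell bodies of pyramidal neurons, and they are marked by the calcium buffer parvalbumin, GABA synthesis enzymes and Kv3 potassium channels. In neurons, strong synaptic activity raises calcium and activates CREB, SRF and related factors, which switch on immediate early transcription factors such as Fos, Egr1 and Npas4. Those factors act with others on later genes for growth factors, neuropeptides and synaptic proteins. In a Ribotag experiment an antibody to the HA tag pulls ribosomes with their transcripts, so RNA of the tagged cells is enriched over that of the tissue rather than isolated from it.

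The tagged libraries carried the markers that the label implies. Pvalb measured 120.0 to 177 CPM in the PBS IP and 6.29 to 20.7 CPM in the PBS input, and Syt2, the fast calcium sensor of PV cell terminals, 562 to 739 CPM in the PBS IP and 30.7 to 44.9 CPM in the PBS input. Summed over 13 PV markers, of which 12 were tested, the IP held 3688 to 4824 CPM after PBS and 3224 to 4683 CPM after kainic acid, against 890.2 to 1056 CPM and 753 to 888 CPM in the inputs. Sums of markers here and below take in every list member with deposited counts, tested or not. The IP sums were scaled over the 8 IP libraries and the input sums over all 16 PV libraries, so the scales differ. Values of a single gene set beside the input or the CaMK2a IP were scaled jointly with those libraries. They therefore differ somewhat from the IP values of the same gene elsewhere. RNA of other cells was present as well: markers of pyramidal cells summed to 5012 to 5878 CPM after PBS and 4269 to 7493 CPM after kainic acid, of astrocytes to 6079 to 8085 CPM after PBS and 4714 to 8207 CPM after kainic acid, and of the oligodendrocyte lineage to 3979.6 to 6063 CPM after PBS and 4667 to 5542 CPM after kainic acid. In such bulk samples fewer cells of a type and less RNA per cell cannot be told apart. The part of these other cells in the rises and falls below was not tested for any gene. The 8 IP libraries held 10.9 to 15.8 M counted reads, no 2 of them were identical, and the share of mitochondrial counts was 1.90% to 2.01% in PBS replicates 1 to 3 and 2.80% to 3.38% in kainic acid replicates 1 to 3. In replicate 4 it was 0.795% after PBS and 0.910% after kainic acid, so it was lower in that replicate and higher after kainic acid within the others and within replicate 4. The principal component with the largest share of variance (31.1%) separated the treatments, and kainic acid replicate 2 stood apart on the next one (16.1%). Rpl22 itself was not analysed here.

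Kainic acid raised many more PV-Cre ribosome-bound transcripts than it lowered, and the rises were larger. Of 11107 genes tested with edgeR, 450 rose (4.05%) and 89 fell (0.801%) at an adjusted p under 0.05, with a median log2 fold change of 1.64 among the rises and -1.28 among the falls. A rise of at least 4-fold was seen in 176 genes and one of at least 16-fold in 65, against 16 and 7 falls of those sizes. The median over all genes tested was -0.02. In 433 of the rises and 87 of the falls no kainic acid library overlapped a PBS library. Over all genes tested 787 (7.09%) lay without overlap on the higher side and 450 (4.05%) on the lower side. The authors' deposited table holds 567 higher and 140 lower genes with an FDR below 0.05, and 539 of them are called here. The common coefficient of biological variation was 44.3%, and in simulated data of this design the test recovered 25% of the genes changed 2-fold and 79% of those changed 4-fold. Many changes of the smaller size would therefore not be called. In the same simulated data 9.57% of the calls were false. The counts depended on how the libraries were treated. Leaving out 1 library gave 30 falls (without PBS replicate 1) to 164 (without kainic acid replicate 4). Replicates 1 to 3 alone gave 577 rises and 178 falls, DESeq2 662 and 209, a replicate block 651 and 248, a term for replicate 4 681 and 250, and a fit to all 4 PV groups 776 and 285.

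**Figure D1:**
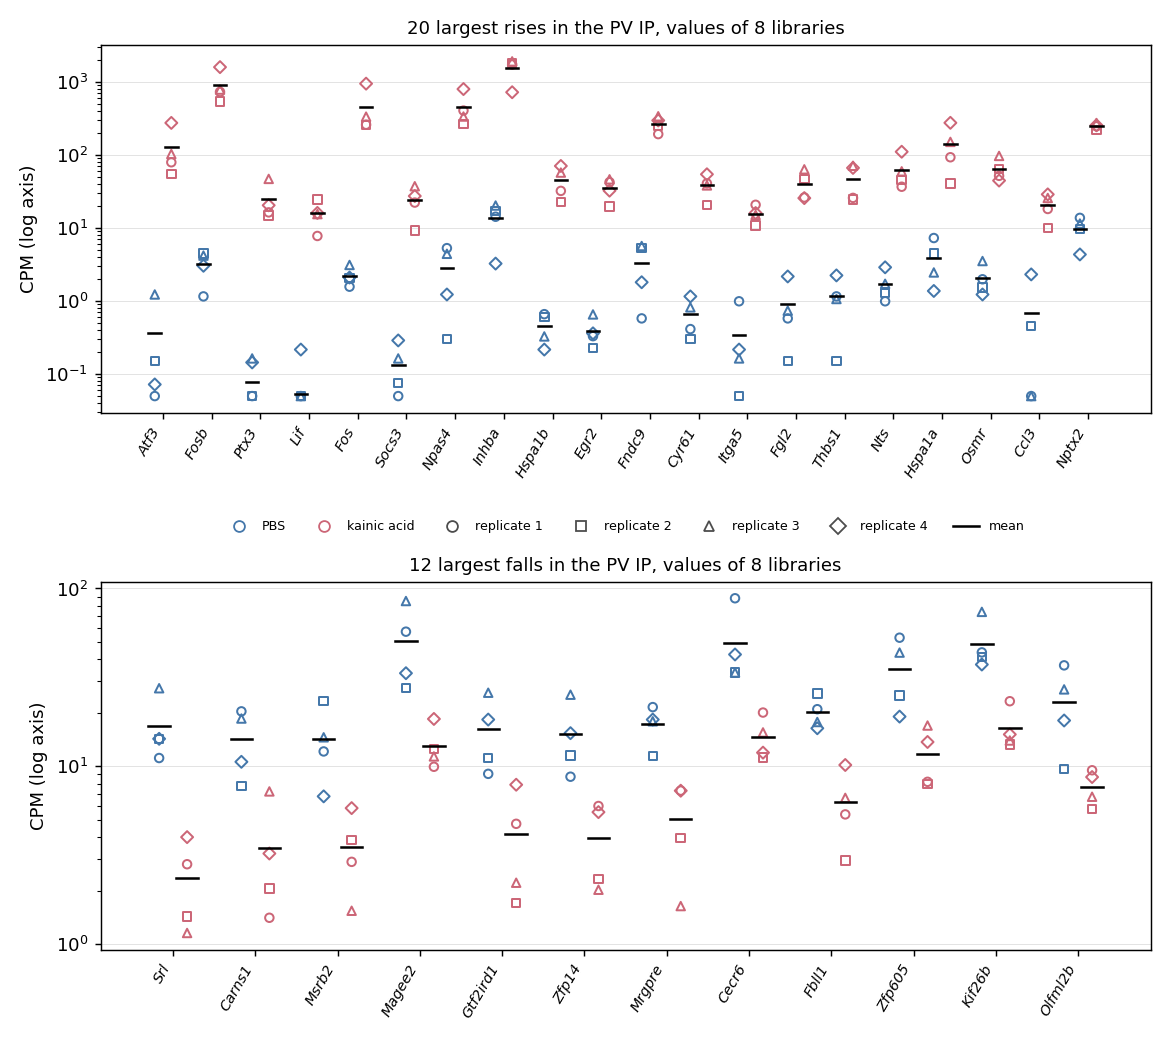
CPM (counts scaled by TMM to a common library size, log axis) of each PV IP library for the 20 largest rises and the 12 largest falls among called genes with a mean log2 CPM of at least 3 and no overlap of the groups; blue is PBS, red is kainic acid, marker shape is the replicate and the black bar the mean. Values under 0.05 CPM are drawn at 0.05; in every gene shown the 4 kainic acid libraries lie on one side of the 4 PBS libraries.

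Levels below are in CPM (counts scaled to library size, with TMM factors) per library in the order of replicates 1 to 4, and errors of log2 fold changes are standard errors. Of the transcription factors, 10 of 11 tested members of the AP-1 family rose and none fell, with a median log2 fold change of 3.87, and in all 10 the groups did not overlap. Since 433 of all 450 rises lay without overlap, its absence sets no list apart, here or below. The counts of rises and falls in each list stand beside 4.05% and 0.801% over all genes tested. Fosb, a Fos family partner of Jun proteins (gene ID 14282, chromosome 7, 19302696 to 19310232, 4 exons), measured 1.16, 4.48, 4.17 and 3.03 CPM after PBS and 724, 537, 779 and 1580.2 CPM after kainic acid. Every kainic acid library lay far above every PBS library, and the log2 fold change was 8.13 ± 0.45 (edgeR adjusted p = 8.86e-09). Fos (gene ID 14281, chromosome 12, 85473901 to 85477269, 4 exons) measured 1.57, 2.05, 3.11 and 2.09 CPM after PBS and 258, 254, 332 and 939 CPM after kainic acid. The values of kainic acid replicates 1 to 3 lay close together and replicate 4 stood well above them, a pattern that recurred in this family: replicate 4 was the highest kainic acid library in 9 of the 10 AP-1 rises and replicate 2 the lowest in 8. Atf3, a stress-induced factor that pairs with Jun proteins, measured 0, 0.152, 1.23 and 0.0721 CPM after PBS and 79, 54.2, 102 and 273 CPM after kainic acid. For Atf3 the log2 fold change was 8.45 ± 0.75 (edgeR adjusted p = 1.59e-06). Jun was already present in PBS, at 39.4, 41.6, 43.3 and 46.4 CPM after PBS and 549.9, 472, 576 and 897 CPM after kainic acid, and its PBS libraries spanned a narrow range. Junb and Fosl1 were low in PBS and rose by 3.96 ± 0.70 and 4.34 ± 0.61 on the log2 scale, and Fosl2 rose by 3.28 ± 0.26. The small Maf proteins lack a transactivation domain of their own. Maff rose from 0.0825, 3.27, 1.31 and 1.66 to 18.8, 15.3, 20.4 and 26.4 CPM. For Maff the log2 fold change was 3.67 ± 0.65 (edgeR adjusted p = 0.00211). Jund and Mafk rose less, and their calls ended without PBS IP replicate 1 (0.0507) for Jund and without any 1 of the 8 libraries other than kainic acid IP replicate 3 or 4 or PBS IP replicate 3 (0.0522 to 0.105) for Mafk (edgeR adjusted p). Mafg, the member that did not pass, had a log2 fold change of 0.16 ± 0.24. Summed, the AP-1 genes were at 191 to 229 CPM after PBS and 1881 to 4777 CPM after kainic acid. In the inputs they were at 257 to 293 CPM after PBS and 1418 to 3325 CPM after kainic acid.

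All 6 tested Egr and Nr4a factors rose (median 3.33), and no call ended when any 1 of the 8 libraries was left out. These zinc finger factors and orphan nuclear receptors are classic immediate early genes. Egr1 measured 103, 69.7, 107 and 74.6 CPM after PBS and 1261, 740.0, 1429 and 2261 CPM after kainic acid. For Egr1 the log2 fold change was 4.00 ± 0.30 (edgeR adjusted p = 3.38e-07). Egr2, close to absent in PBS, measured 0.33, 0.228, 0.655 and 0.361 CPM after PBS and 42.2, 19.6, 46.2 and 32.3 CPM after kainic acid. For Egr2 the log2 fold change was 6.45 ± 0.48 (edgeR adjusted p = 3.38e-07). Egr3, Egr4, Nr4a1 and Nr4a3 changed by 2.55 ± 0.22, 3.63 ± 0.36, 3.02 ± 0.37 and 2.25 ± 0.24 on the log2 scale. Egr1, Egr3 and Nr4a3 were present in every PBS library at more than 50 CPM, whereas Egr2 and Egr4 were low in PBS. The groups did not overlap in any of the 6. Nr4a2 was not analysed here.

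Of 26 other inducible transcription regulators 17 rose and none fell (median 2.19). Npas4, a neuron-specific factor that acts on inhibitory synapses (gene ID 225872, chromosome 19, 4984353 to 5001929, 9 exons), measured 5.28, 0.304, 4.42 and 1.23 CPM after PBS and 403, 265, 333 and 792 CPM after kainic acid. Its lowest kainic acid library was 265 CPM and its highest PBS library 5.28 CPM. For Npas4 the log2 fold change was 7.33 ± 0.60 (edgeR adjusted p = 6.42e-07). Nfil3, a repressor that acts in the clock output loop, measured 2.72, 10.8, 8.59 and 3.75 CPM after PBS and 123.32, 106, 122 and 204 CPM after kainic acid. For Nfil3 the log2 fold change was 4.42 ± 0.40 (edgeR adjusted p = 1.86e-06). Csrnp1, a nuclear protein induced by serum and stress, rose by 4.39 ± 0.54 and Klf4 by 4.10 ± 0.76 on the log2 scale. The salt-inducible kinase gene Sik1, which acts back on CREB coactivators, measured 10.3, 11.9, 6.96 and 7 CPM after PBS and 70.8, 92.2, 70.9 and 131 CPM after kainic acid. For Sik1 the log2 fold change was 3.33 ± 0.30 (edgeR adjusted p = 1.59e-06). Klf5, Klf6, Ier5, Arid5b, Myc, Per1, Bhlhe40, Sox11 and Kdm6b also rose, the last 2 being a developmental transcription factor and a histone H3K27 demethylase. Sox11 measured 34.3, 48.3, 37 and 29.4 CPM after PBS and 141, 188, 251 and 89.3 CPM after kainic acid, with replicate 4 the lowest kainic acid library, opposite to its place among the AP-1 factors. The calls of Ier2, Btg2 and Sertad1 ended when single libraries were left out: Ier2 without any 1 of the 8 libraries other than kainic acid IP replicate 3 or 4 or PBS IP replicate 2 (0.0524 to 0.0971), Btg2 without PBS IP replicate 1 (0.0556) or PBS IP replicate 2 (0.0531) and Sertad1 without kainic acid IP replicate 2 or 3, or PBS IP replicate 3 or 4 (0.0595 to 0.0926). Srf, which encodes serum response factor itself, had a log2 fold change of 0.32 ± 0.24 and did not pass (edgeR adjusted p = 0.563).

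Among growth factors and ligands of the TGF-beta family 8 of 26 rose and none fell (median 0.70), so most of this list did not pass. Summed, the list was at 675 to 925 CPM after PBS and 1976 to 3455 CPM after kainic acid. In the inputs it was at 690 to 950 CPM after PBS and 2707 to 4592 CPM after kainic acid, so it was not enriched by the IP. Inhba, which encodes the subunit that forms activin A (gene ID 16323, chromosome 13, 16011832 to 16027723, 5 exons), measured 14.2, 16.9, 20.2 and 3.25 CPM after PBS and 1716, 1809, 1894 and 716 CPM after kainic acid. Kainic acid replicates 1 to 3 lay between 1716 and 1894 CPM, replicate 4 was the lowest, and all were far above the PBS libraries. For Inhba the log2 fold change was 6.82 ± 0.49 (edgeR adjusted p = 2.12e-07). Inha and Inhbb, the other inhibin subunits tested, had log2 fold changes of -0.04 ± 0.59 and -1.17 ± 0.98, and Fst, the activin-binding follistatin, 1.48 ± 0.79. None of these 3 passed. Bdnf, the ligand of TrkB (gene ID 12064, chromosome 2, 109674700 to 109727043, 9 exons), measured 22.3, 16.5, 19.4 and 18.2 CPM after PBS and 273, 299, 423 and 270.4 CPM after kainic acid. For Bdnf the log2 fold change was 4.05 ± 0.22 (edgeR adjusted p = 8.86e-09). Hbegf, a ligand of EGF receptors, measured 10.7, 9.8, 5.89 and 8.95 CPM after PBS and 29.5, 41.2, 51.6 and 57.4 CPM after kainic acid. For Hbegf the log2 fold change was 2.34 ± 0.32 (edgeR adjusted p = 0.000151). Fgf2, Tgfb1, Tgfb2, Vegfa and Bmp4 rose as well, but each call depended on single libraries. The Fgf2 call ended without any 1 of the 8 libraries other than kainic acid IP replicate 4 or PBS IP replicate 3 (0.06 to 0.219). In Tgfb1 and Bmp4 the groups overlapped, and in the other 6 rises they did not. The Tgfb1 call ended without any 1 of the 8 libraries other than kainic acid IP replicate 3 or 4 (0.0505 to 0.147). Those of Tgfb2, Vegfa and Bmp4 ended without kainic acid IP replicate 1 (0.0521) or PBS IP replicate 2 (0.0605), without kainic acid IP replicate 3 (0.0915), PBS IP replicate 3 (0.0749) or PBS IP replicate 4 (0.0527) and without any 1 of the 8 libraries other than kainic acid IP replicate 3 or 4 or PBS IP replicate 4 (0.111 to 0.16) (edgeR adjusted p throughout).

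Neuropeptide precursors rose in 10 of 20 tested members and fell in none (median 1.64), and in all 10 the groups did not overlap. Nts, the precursor of neurotensin (gene ID 67405, chromosome 10, 102481756 to 102490418, 5 exons), was low in PBS, at 0.99, 1.29, 1.72 and 2.89 CPM after PBS and 36.5, 44.9, 59.4 and 110.0 CPM after kainic acid. For Nts the log2 fold change was 5.17 ± 0.45 (edgeR adjusted p = 1.14e-06). Sst, the somatostatin precursor (gene ID 20604, chromosome 16, 23889581 to 23890844, 2 exons), started much higher, at 256, 219.6, 212 and 249 CPM, and reached 729, 987, 826 and 862 CPM. Its lowest kainic acid library was 729 CPM and its highest PBS library 256 CPM. For Sst the log2 fold change was 1.86 ± 0.17 (edgeR adjusted p = 2.02e-06). Tac1, the precursor of substance P, which PV cells also express, measured 55.5, 53.2, 58 and 56.6 CPM after PBS and 152, 176, 214 and 334 CPM after kainic acid. For Tac1 the log2 fold change was 1.97 ± 0.23 (edgeR adjusted p = 3.67e-05). Npy, the neuropeptide Y precursor, measured 15.2, 17.2, 17.9 and 26.6 CPM after PBS and 55.2, 72.7, 62 and 119 CPM after kainic acid. For Npy the log2 fold change was 2.01 ± 0.29 (edgeR adjusted p = 0.000309). Penk, the enkephalin precursor, and Adcyap1, the precursor of PACAP, rose by 2.04 ± 0.33 and 2.06 ± 0.42 on the log2 scale, from low levels. Pnoc, the nociceptin precursor, measured 1.9, 4.03, 0.164 and 15.4 CPM after PBS and 26.8, 40.4, 41.9 and 169 CPM after kainic acid, with replicate 4 highest in both groups, and its call ended without PBS IP replicate 2 (0.0549) (edgeR adjusted p). Pthlh, which encodes parathyroid hormone-like peptide and is counted among the PV markers, measured 18.2, 9.96, 17 and 23.6 CPM after PBS and 28.4, 27.4, 35.7 and 91.3 CPM after kainic acid (log2 fold change 1.41 ± 0.39), and its call ended without any 1 of the 8 libraries other than kainic acid IP replicate 1 or 2 or PBS IP replicate 4 (0.0721 to 0.181) (edgeR adjusted p). Trh, the thyrotropin-releasing hormone precursor, was at 0 counts in every PBS library and at 1.85, 5.65, 2.6 and 9.59 CPM after kainic acid, at least 94.0-fold higher when the PBS group is set to a floor of 3 counts. Gal, the galanin precursor, had 2 counts over the PBS group and 167 over the kainic acid group, a ratio of 86.0 with a 95% counting interval of 23.4 to 716, which covers counting error only. Cck, an abundant peptide precursor of other interneurons and pyramidal cells, measured 346, 384, 409.6 and 435 CPM after PBS and 408, 558, 485 and 383 CPM after kainic acid and did not pass (edgeR adjusted p = 0.593). In 8 of the 10 rises replicate 4 was the highest kainic acid library and in 7 replicate 1 was the lowest. Sst and Npy are also markers of other interneuron classes. The summed markers of those classes were 1019 to 1073 CPM after PBS and 1683 to 2107 CPM after kainic acid, with the other 9 of the 11 markers not passing. Among these Crh, the corticotropin-releasing hormone precursor, lay higher without overlap at 1.65, 1.06, 0.164 and 0.289 CPM after PBS and 5.63, 3.77, 7.04 and 6.06 CPM after kainic acid (log2 fold change 2.82 ± 0.83, edgeR adjusted p = 0.0681), and it passed by DESeq2 (0.00564) and with a term for replicate 4 (0.0481). Sst measured 215 to 262 CPM in the PBS IP and 417 to 503 CPM in the PBS input, so that it was not enriched by the IP. The part of other interneurons in the rise of Sst and Npy was not tested.

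Peptides are cut from precursors and stored with granins in dense-core vesicles, and 4 of 14 genes of that machinery rose (median 0.21), none of them losing the call when 1 library was left out. Scg2, secretogranin II (gene ID 20254, chromosome 1, 79434669 to 79440123, 2 exons), measured 348, 304, 318 and 240.4 CPM after PBS and 1390.4, 1508, 1906 and 2349.9 CPM after kainic acid. For Scg2 the log2 fold change was 2.56 ± 0.20 (edgeR adjusted p = 4.52e-07). Vgf, a granin-like growth factor-inducible precursor, measured 16.7, 22.8, 27.7 and 42 CPM after PBS and 119, 144, 155 and 446 CPM after kainic acid. For Vgf the log2 fold change was 2.98 ± 0.40 (edgeR adjusted p = 0.000125). Pcsk1, the prohormone convertase 1/3 (gene ID 18548, chromosome 13, 75089421 to 75134861, 16 exons), had nearly equal PBS libraries: 13.8, 15.4, 14.7 and 14.8 CPM after PBS and 176, 125, 216 and 193 CPM after kainic acid. For Pcsk1 the log2 fold change was 3.60 ± 0.22 (edgeR adjusted p = 3.31e-08). Pam, the enzyme that amidates peptides, rose by 1.03 ± 0.19 on the log2 scale. The other convertase, Pcsk2, the carboxypeptidase Cpe and the granins Chga, Chgb and Scg3 had log2 fold changes of -0.30 ± 0.20, 0.23 ± 0.17, 0.35 ± 0.33, 0.19 ± 0.18 and 0.10 ± 0.18, and none of them passed. Per length, Scg2 stood at 34.5 ± 3.16 after PBS and 199.82 ± 65.6 after kainic acid and Chgb at 89.5 ± 9.33 after PBS and 99.7 ± 24.3 after kainic acid in deposited RPKM (mean ± SD, n = 4), which scales reads by gene length and library size, so that Scg2 passed Chgb only after kainic acid.

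The DNA upstream of 6 of these genes was read from RefSeq to show what stands at their starts. The cAMP response element (CRE), TGACGTCA, is bound by CREB and ATF proteins, and the AP-1 element by Fos and Jun proteins. The AP-1 element was searched in the loose form TGANTCA, with N any base. Sst, Scg2 and Pcsk1 are shown because they hold the CRE, Nts because it holds the AP-1 letters, and Fosb and Osmr because they mark the response and rose strongly. Each line gives the 250 bases before the transcription start, 5′ to 3′ on the strand of the gene, with the letters of the CRE, of its core TGACG and of the AP-1 element in capitals, on either strand. The starts are those of RefSeq. For Scg2, Pcsk1, Fosb and Osmr they lie inside the longer gene span of the deposited table given beside each gene. The regions (GRCm38.p6) are chr16:23890845-23891094 on the reverse strand for Sst, chr1:79440027-79440276 on the reverse strand for Scg2, chr13:75089607-75089856 on the forward strand for Pcsk1, chr10:102490419-102490668 on the reverse strand for Nts, chr7:19310046-19310295 on the reverse strand for Fosb and chr15:6874314-6874563 on the reverse strand for Osmr.
Sst: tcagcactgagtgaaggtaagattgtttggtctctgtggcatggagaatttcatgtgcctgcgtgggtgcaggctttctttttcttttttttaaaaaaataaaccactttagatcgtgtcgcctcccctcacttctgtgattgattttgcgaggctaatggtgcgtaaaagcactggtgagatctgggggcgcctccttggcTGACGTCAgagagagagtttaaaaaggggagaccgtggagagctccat
Scg2: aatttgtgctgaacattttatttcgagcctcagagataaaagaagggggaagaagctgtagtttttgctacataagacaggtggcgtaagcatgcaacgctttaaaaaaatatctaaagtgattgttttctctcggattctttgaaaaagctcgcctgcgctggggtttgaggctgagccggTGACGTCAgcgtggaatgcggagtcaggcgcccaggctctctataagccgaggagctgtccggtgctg
Pcsk1: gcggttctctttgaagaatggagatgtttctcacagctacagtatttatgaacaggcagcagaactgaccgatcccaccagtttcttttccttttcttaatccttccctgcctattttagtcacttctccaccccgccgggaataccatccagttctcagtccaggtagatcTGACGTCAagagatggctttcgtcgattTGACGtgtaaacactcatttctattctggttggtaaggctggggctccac
Nts: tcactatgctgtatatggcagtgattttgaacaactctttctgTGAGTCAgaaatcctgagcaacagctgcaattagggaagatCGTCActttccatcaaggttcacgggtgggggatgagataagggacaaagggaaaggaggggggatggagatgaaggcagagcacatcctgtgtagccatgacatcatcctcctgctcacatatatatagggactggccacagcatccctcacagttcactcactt
Fosb: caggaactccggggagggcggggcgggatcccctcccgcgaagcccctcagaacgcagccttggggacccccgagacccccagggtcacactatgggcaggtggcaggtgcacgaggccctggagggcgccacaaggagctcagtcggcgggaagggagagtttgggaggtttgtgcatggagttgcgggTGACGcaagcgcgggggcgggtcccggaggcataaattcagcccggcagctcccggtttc
Osmr: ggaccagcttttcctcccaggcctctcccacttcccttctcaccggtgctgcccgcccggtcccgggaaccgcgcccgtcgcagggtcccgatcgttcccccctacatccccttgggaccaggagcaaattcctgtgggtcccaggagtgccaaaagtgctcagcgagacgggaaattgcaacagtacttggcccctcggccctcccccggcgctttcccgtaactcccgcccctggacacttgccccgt
The CRE began 48 bases before the start in Sst, 68 in Scg2 and 78 in Pcsk1, and Pcsk1 held another core at 50. Nts held the AP-1 letters at 207 and a core on the opposite strand at 166, Fosb held a core at 60, and none of the 3 motifs is among the 250 bases of Osmr. Searched on both strands in the same 250 bases, the CRE was in 20 of the 346 rises with a RefSeq entry (5.78%), in 0 of 63 falls, in 275 of 8766 matched genes tested (3.14%) and in 1.55% of all 32851 promoters. Its core TGACG, which also lies within every CRE, was in 139 of the 346 rises (40.2%), in 7 of 63 falls (11.1%), in 30.0% of matched genes tested and in 17.8% of all promoters. The AP-1 letters were in 38 of the 346 rises, 1 fall (1.59%), 5.40% of matched genes tested and 6.75% of all promoters. A match describes these letters and no binding was measured, and their absence from the window says nothing about the factors.

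**Figure D2:**
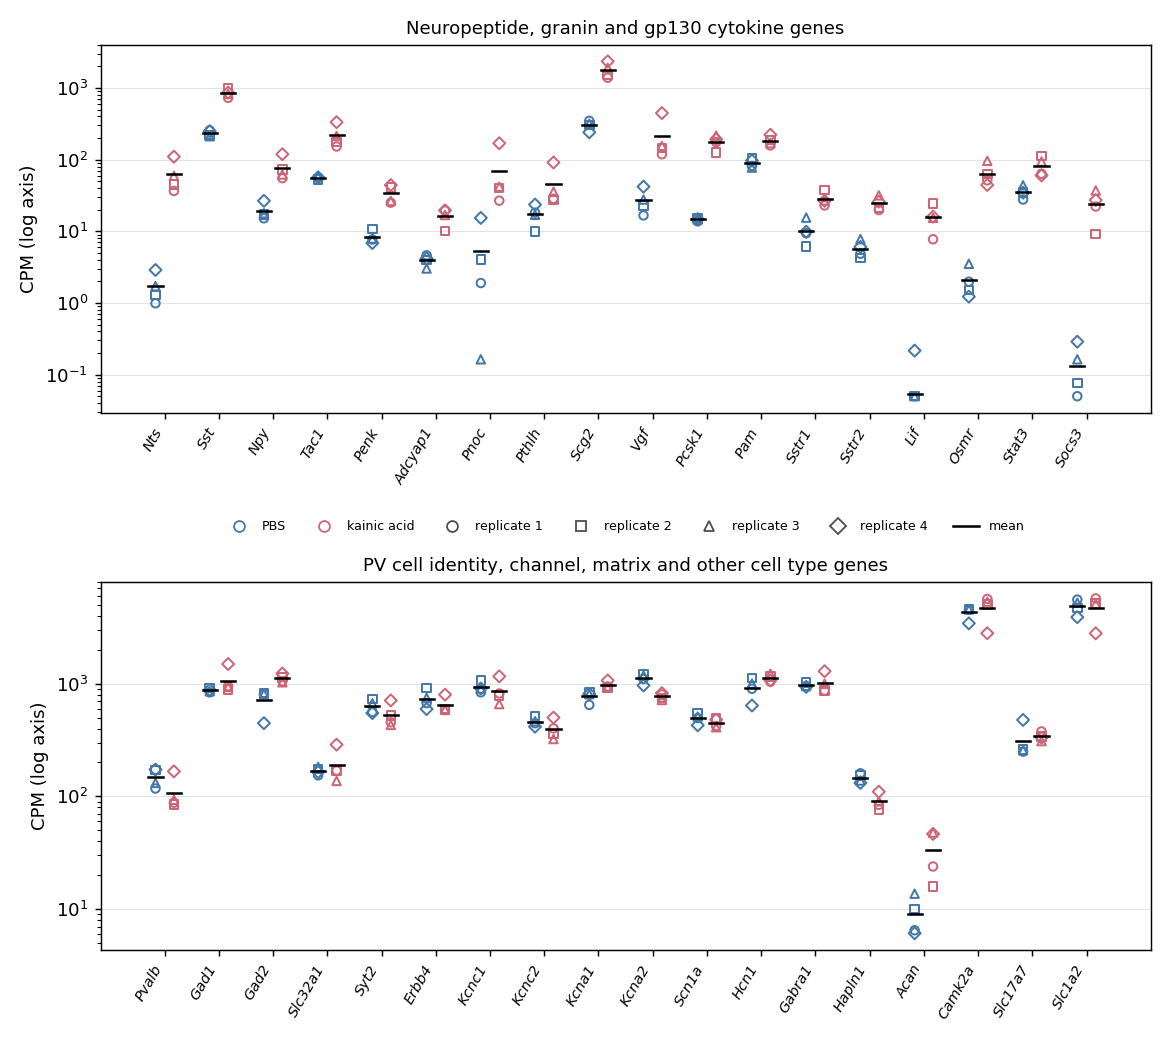
CPM (log axis) of each PV IP library for neuropeptide, granin, somatostatin receptor and gp130 cytokine genes (top) and for PV identity, channel, perineuronal net and other cell type genes (bottom); blue is PBS, red is kainic acid, marker shape is the replicate, the black bar is the mean, and values under 0.05 CPM are drawn at 0.05. The 18 genes of the upper panel lie higher after kainic acid without overlap, whereas in the lower panel most groups overlap, while Kcna2 and Hapln1 lie lower and Gad2, Kcna1 and Acan higher without overlap.

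Receptors that adjust the input of interneurons rose in 3 of 16 tested members and fell in none (median -0.04). The rises are 18.8% of the list, beside 4.05% over all genes tested, and rest on these 3 genes. The somatostatin receptor genes Sstr1 and Sstr2 are among them. Sstr2 measured 4.87, 4.26, 7.77 and 6.06 CPM after PBS and 19.8, 21.6, 31.7 and 25.9 CPM after kainic acid. For Sstr2 the log2 fold change was 2.11 ± 0.36 (edgeR adjusted p = 0.00153). Sstr1 measured 9.41, 6.16, 15.5 and 9.88 CPM after PBS and 23, 37.7, 27 and 26.6 CPM after kainic acid, and its call ended without kainic acid IP replicate 2 (0.0633), PBS IP replicate 1 (0.0567) or PBS IP replicate 2 (0.0674) (edgeR adjusted p). Acvr1, a type I receptor of the TGF-beta family, measured 27, 16.2, 31.8 and 35.9 CPM after PBS and 58.4, 63, 72 and 64.2 CPM after kainic acid (log2 fold change 1.22 ± 0.26, edgeR adjusted p = 0.00996), while the activin receptor genes Acvr1b and Acvr2a had log2 fold changes of -0.42 ± 0.21 and -0.67 ± 0.27 and did not pass, Acvr2a passing on the lower side with a term for replicate 4 (0.0304). Nor did Ntrk2, the receptor of Bdnf, at 878, 838, 850.5 and 691 CPM after PBS and 974, 957, 1068 and 1005 CPM after kainic acid, the neurotensin receptor genes Ntsr1 and Ntsr2 (-1.28 ± 0.95 and -0.58 ± 0.31), or Erbb4, a neuregulin receptor of PV cells (-0.19 ± 0.18). The opioid receptor gene Oprd1 changed by -0.62 ± 0.24 with all replicates (edgeR adjusted p = 0.195) and by -0.90 with replicates 1 to 3 only, where it passed (0.0177).

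The gp130 pathway carries signals of interleukin 6 family cytokines through Jak kinases and Stat3 and is closed by Socs3. Of 11 tested members 4 rose (median 0.52): the ligand Lif, the receptor subunit Osmr, Stat3 and Socs3. Osmr, the oncostatin M receptor (gene ID 18414, chromosome 15, 6813576 to 6877253, 20 exons), measured 1.98, 1.52, 3.52 and 1.23 CPM after PBS and 51.5, 63.4, 96.4 and 44.4 CPM after kainic acid. For Osmr the log2 fold change was 4.95 ± 0.40 (edgeR adjusted p = 5.02e-07). Lif had 3 counts over the PBS group, all in replicate 4, and 792 over the kainic acid group, a ratio of 271.8 with a 95% counting interval of 92.7 to 1321. Socs3 measured 0, 0.076, 0.164 and 0.289 CPM after PBS and 22.2, 9.24, 37.1 and 27.2 CPM after kainic acid (log2 fold change 7.37 ± 0.71, edgeR adjusted p = 3.39e-06), and Stat3 27.8, 35, 43.9 and 34.6 CPM after PBS and 63.6, 112, 94.3 and 60.2 CPM after kainic acid. For Stat3 the log2 fold change was 1.22 ± 0.25 (edgeR adjusted p = 0.0075). The shared receptor subunit Il6st, at 100.2, 126, 85 and 84.3 CPM after PBS, had a log2 fold change of 0.31 ± 0.20 and did not pass, nor did Jak1 (0.32 ± 0.17) or Jak2 (0.52 ± 0.24).

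Chemokines and inflammatory mediators rose in 10 of 16 tested members (median 2.95). Ccl2, Ccl4, Cxcl1 and Cxcl2, which attract leukocytes, were at 0 counts in all 4 PBS libraries and in every kainic acid library above 0. Against a floor of 3 counts over the PBS group they were at least 74.1-fold, 67.3-fold, 55.6-fold and 38.4-fold higher. Ccl3 measured 0, 0.456, 0 and 2.31 CPM after PBS and 18.1, 9.95, 25.6 and 28.7 CPM after kainic acid. For Ccl3 the log2 fold change was 4.85 ± 0.92 (edgeR adjusted p = 0.00379). Ptx3, a secreted pentraxin of innate immunity, measured 0, 0, 0.164 and 0.144 CPM after PBS and 16.3, 14.8, 46.7 and 20.4 CPM after kainic acid (log2 fold change 8.13 ± 0.76, edgeR adjusted p = 2.52e-06), with replicate 3 well above the other kainic acid libraries. Il1r1, the interleukin 1 receptor, Tnfaip6, an anti-inflammatory hyaluronan-binding protein, and Nfkbiz, a nuclear regulator of NF-kappaB, rose by 1.77 ± 0.37, 2.60 ± 0.42 and 2.91 ± 0.40 on the log2 scale. The call of the adhesion gene Icam1 ended without any 1 of the 8 libraries other than kainic acid IP replicate 1 or 2 or PBS IP replicate 2 (0.0561 to 0.101) (edgeR adjusted p). Cx3cl1, the neuronal fractalkine, and Vcam1 had log2 fold changes of 0.45 ± 0.24 and -0.11 ± 0.44 and did not pass. Several of these genes are known from glia, so glial markers are given beside them. Of 18 genes known from reactive astrocytes 12 rose (median 2.87), among them Serpina3n, Vim, Emp1, S1pr3, Cd14, Hspb1 and Timp1. Vim, an intermediate filament gene, measured 9.82, 6.61, 10.5 and 16.1 CPM after PBS and 26.1, 25, 79.3 and 56.7 CPM after kainic acid. For Vim the log2 fold change was 2.12 ± 0.40 (edgeR adjusted p = 0.00369). The calls of Cd44 and S100a10 ended without kainic acid IP replicate 1 or 3, or PBS IP replicate 2 or 4 (0.0533 to 0.0848) and without PBS IP replicate 2 (0.052) (edgeR adjusted p). Summed, the reactive genes were at 156 to 169 CPM after PBS and 713 to 1105 CPM after kainic acid, and in the inputs at 248 to 251 CPM and 1189 to 1851 CPM after PBS and kainic acid. Astrocyte markers summed to 6079 to 8085 CPM after PBS and 4714 to 8207 CPM after kainic acid, with 1 of 12 rising, the transcription factor Sox9 (1.46 ± 0.22). This 1 gene is 8.3% of the list, beside 4.05% over all genes tested. Microglia markers summed to 133 to 225 CPM after PBS and 175 to 209 CPM after kainic acid, with none of 12 called by edgeR (at an unadjusted p under 0.05, 2 higher and 1 lower, and 1 lower by DESeq2). No measured marker of these lists was at 0 in all 8 libraries. The part of glial RNA in the rise of the inflammatory genes was not tested.

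Synaptic effectors of activity formed the list with the most rises, 20 of 26 tested (median 2.23). Summed, they were at 1618 to 1886 CPM after PBS and 6436 to 7228 CPM after kainic acid. In the inputs they were higher, at 2811.5 to 3141 CPM after PBS and 8434 to 10374 CPM after kainic acid. Arc, a regulator of AMPA receptor endocytosis, measured 52.6, 42.6, 37.2 and 62.5 CPM after PBS and 671, 600.2, 792 and 794 CPM after kainic acid. For Arc the log2 fold change was 3.87 ± 0.21 (edgeR adjusted p = 8.86e-09). Nptx2, a secreted pentraxin that gathers AMPA receptors on PV cells (gene ID 53324, chromosome 5, 144545887 to 144557478, 5 exons), measured 13.7, 9.58, 11.5 and 4.33 CPM after PBS and 245, 219, 272 and 253 CPM after kainic acid (log2 fold change 4.66 ± 0.30, edgeR adjusted p = 5.27e-08), and its relative Nptx1 rose less, by 0.73 ± 0.18, a call that ended without any 1 of the 8 libraries other than kainic acid IP replicate 4 or PBS IP replicate 4 (0.0633 to 0.108) (edgeR adjusted p). Homer1, a scaffold of metabotropic glutamate receptors, measured 153, 125, 186 and 112 CPM after PBS and 772, 654, 781 and 479 CPM after kainic acid. For Homer1 the log2 fold change was 2.22 ± 0.21 (edgeR adjusted p = 3.39e-06). Rgs4 and Rgs2, brakes on G protein signalling, were abundant in PBS and rose by 2.79 ± 0.19 and 2.04 ± 0.25 on the log2 scale. Syt4, a synaptotagmin of dense-core vesicles, measured 200.01, 166, 157 and 117 CPM after PBS and 668, 645, 799 and 881 CPM after kainic acid. For Syt4 the log2 fold change was 2.23 ± 0.20 (edgeR adjusted p = 1.59e-06). Plk2, a kinase of homeostatic plasticity, measured 101, 106, 85.7 and 105 CPM after PBS and 479, 418, 453 and 483 CPM after kainic acid (log2 fold change 2.20 ± 0.17, edgeR adjusted p = 3.92e-07), whereas Plk3 had a log2 fold change of -0.04 ± 0.51 and did not pass. The stress and DNA repair genes Gadd45b and Gadd45g and the cell cycle inhibitor Cdkn1a rose by 4.15 ± 0.53, 3.74 ± 0.39 and 3.78 ± 0.45. Gem and Rrad are small GTPases that restrain calcium channels. Gem measured 1.82, 1.37, 0.245 and 0.721 CPM after PBS and 14.3, 11.3, 12.1 and 23.4 CPM after kainic acid (log2 fold change 3.87 ± 0.61, edgeR adjusted p = 0.00075), and Rrad had 3 counts over the PBS group and 316 over the kainic acid group, a ratio of 108 with a 95% counting interval of 36.8 to 529. Rem2 of the same family rose too, and its call ended without kainic acid IP replicate 1 (0.0941), kainic acid IP replicate 3 (0.0504) or PBS IP replicate 2 (0.074) (edgeR adjusted p). Sorcs3, Frmd6, Fam126b, Rheb, Tiparp and Nrn1 were the other rises, and the groups overlapped in none of the 20.

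Inhibitors of MAP kinase signalling rose in 8 of 15 tested members (median 1.45). Errfi1, an inhibitor of EGF receptors, measured 55.7, 67.9, 99.3 and 53.8 CPM after PBS and 493, 413, 420.2 and 529 CPM after kainic acid. For Errfi1 the log2 fold change was 2.75 ± 0.22 (edgeR adjusted p = 4.52e-07). The phosphatase genes Dusp1, Dusp14, Dusp4 and Dusp6 rose by 2.60 ± 0.26, 2.52 ± 0.25, 2.33 ± 0.33 and 2.18 ± 0.23 on the log2 scale, and Spry2 and Spred2 by 2.53 ± 0.20 and 0.98 ± 0.16. Spry4 was the only one of the 8 whose groups overlapped, and its call ended without PBS IP replicate 2 (0.0693), PBS IP replicate 3 (0.0725) or PBS IP replicate 4 (0.0535) (edgeR adjusted p). Dusp8 and Dusp10 did not pass. In the prostaglandin list the only riser of 12 was Ptgs2, the inducible cyclooxygenase, at 20.3, 9.88, 17.1 and 14.1 CPM after PBS and 320.4, 306, 379 and 330.1 CPM after kainic acid (log2 fold change 4.44 ± 0.24, edgeR adjusted p = 8.86e-09), and the median of that list was 0.67. A share of 8.3%, beside 4.05% over all genes tested, thus rests on this gene alone.

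Matrix and matricellular genes rose in 9 of 24 tested members (median 1.04). Cyr61 and Thbs1, secreted proteins that act on integrins, measured 0.413, 0.304, 0.818 and 1.15 CPM after PBS and 40.6, 20.4, 38.1 and 54.1 CPM after kainic acid (log2 fold change 5.80 ± 0.49, edgeR adjusted p = 9.91e-07), and 1.16, 0.152, 1.06 and 2.24 CPM after PBS and 25.7, 24.5, 70.7 and 66.1 CPM after kainic acid. For Thbs1 the log2 fold change was 5.32 ± 0.59 (edgeR adjusted p = 1.82e-05). Itga5, the integrin alpha 5 subunit and one of the 20 largest rises under the naming rule, measured 0.99, 0, 0.164 and 0.216 CPM after PBS and 20.7, 10.8, 15 and 15.9 CPM after kainic acid. For Itga5 the log2 fold change was 5.49 ± 0.79 (edgeR adjusted p = 0.000307). Timp1, an inhibitor of metalloproteinases, was at 0 counts in PBS and at least 106-fold higher, and the plasminogen activator gene Plat rose by 2.09 ± 0.32. Adamts1 rose by 2.88 ± 0.29, whereas Mmp9 measured 22.5, 19.5, 19.8 and 47.3 CPM after PBS and 5.9, 6.73, 4.92 and 35.5 CPM after kainic acid, which did not pass with all replicates (edgeR adjusted p = 0.397) and passed on the lower side in a fit to replicates 1 to 3 (0.0186) and with a term for replicate 4 (0.00995). The calls of Tll1, Spp1 and Tnc ended without kainic acid IP replicate 2 (0.0528) or PBS IP replicate 1 (0.0558), without kainic acid IP replicate 3 (0.0595) and without any 1 of the 8 libraries other than kainic acid IP replicate 4 or PBS IP replicate 4 (0.0557 to 0.136) (edgeR adjusted p). Perineuronal nets are matrix coats of PV cells, and their genes had 1 rise and 1 fall of 11 (median 0.30). That is 9.1% each way, beside 4.05% and 0.801% over all genes tested, and rests on single genes. With replicates 1 to 3 only, and also by DESeq2, 2 of the list rose and 1 fell. Acan, the net proteoglycan aggrecan, measured 6.52, 10.1, 13.7 and 6.13 CPM after PBS and 23.9, 16, 47.8 and 46.5 CPM after kainic acid (log2 fold change 1.88 ± 0.40, edgeR adjusted p = 0.0101), and did not pass with replicates 1 to 3 only (0.0596). Hapln1, a link protein of the net, measured 160.3, 154, 139 and 132 CPM after PBS and 84.3, 76.9, 90.4 and 110.2 CPM after kainic acid (log2 fold change -0.69 ± 0.18, edgeR adjusted p = 0.0399), and its call ended without any 1 of the 8 libraries other than kainic acid IP replicate 4 or PBS IP replicate 4 (0.0832 to 0.133). Ncan, Bcan, Vcan, Tnr and Hapln4 did not pass by edgeR with all replicates.

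Heat shock chaperones rose in 6 of 17 members (median 0.58): Hspa1a, Hspa1b, Hspb1, Bag3, Dnajb1 and Hsph1. The Hsp70 genes Hspa1a and Hspa1b measured 7.26, 4.48, 2.45 and 1.37 CPM after PBS and 92.4, 40.4, 150.0 and 273 CPM after kainic acid, and 0.66, 0.608, 0.327 and 0.216 CPM after PBS and 32, 22.7, 57.1 and 70.2 CPM after kainic acid. They are nearly identical in sequence, so their separate values are uncertain, while each lay without overlap. Hsph1, an Hsp110 cochaperone that was already abundant in PBS, rose by 1.27 ± 0.20, and the abundant Hspa8 and Hsp90ab1 had log2 fold changes of 0.58 ± 0.21 and 0.19 ± 0.17 and did not pass. In 5 of the 6 rises replicate 4 was the highest kainic acid library. In the endoplasmic reticulum only Hspa5, the chaperone BiP, and Atf4, a translation-controlled stress factor, rose of 19 (1.33 ± 0.25 and 1.04 ± 0.18). They make up 10.5% of that list, beside 4.05% over all genes tested. Glucocorticoid-responsive genes rose in 6 of 16 (median 1.34), of which Per1, Errfi1 and Cdkn1a stand in other lists as well and Sgk1, Mt1 and Mt2 do not, while Fkbp5, the receptor cochaperone that steroid hormones induce, had a log2 fold change of 0.21 ± 0.28 and did not pass. The metal-binding metallothionein genes Mt1 and Mt2 measured 89.3, 89.4, 111 and 152 CPM after PBS and 326, 299.5, 293 and 366 CPM after kainic acid, and 107, 111, 134 and 208 CPM after PBS and 455, 384, 533 and 630.1 CPM after kainic acid (1.54 ± 0.20 and 1.84 ± 0.23). Cholesterol synthesis had 4 rises of 21 (median 0.38), and their calls depended on single libraries: that of Msmo1 ended without PBS IP replicate 2 (0.0502), Hsd17b7 without any 1 of the 8 libraries other than kainic acid IP replicate 2 or 4 or PBS IP replicate 4 (0.0556 to 0.0803) and Cyp51 without any 1 of the 8 libraries other than kainic acid IP replicate 1 or 2 (0.0735 to 0.152) (edgeR adjusted p). The clock list had 6 rises of 18 (median 0.51): Per1, Cry1, Cry2, Bhlhe40, Bhlhe41 and Nfil3. Per1 measured 18.7, 19.6, 16.9 and 49.9 CPM after PBS and 79.2, 91, 70.2 and 204 CPM after kainic acid (log2 fold change 2.08 ± 0.39, edgeR adjusted p = 0.0034) and Cry2 74.1, 82.8, 82.1 and 97.7 CPM after PBS and 158, 183, 347 and 299 CPM after kainic acid (log2 fold change 1.55 ± 0.24, edgeR adjusted p = 0.00061), while Dbp and Hlf, output factors of the clock, had values of -1.22 ± 0.39 and -0.58 ± 0.19 and did not pass. They passed on the lower side in a fit to replicates 1 to 3 (0.0385 and 0.0174) and with a term for replicate 4 (0.0291 and 0.00982), and Dbp also by DESeq2 (0.0346).

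**Figure D3:**
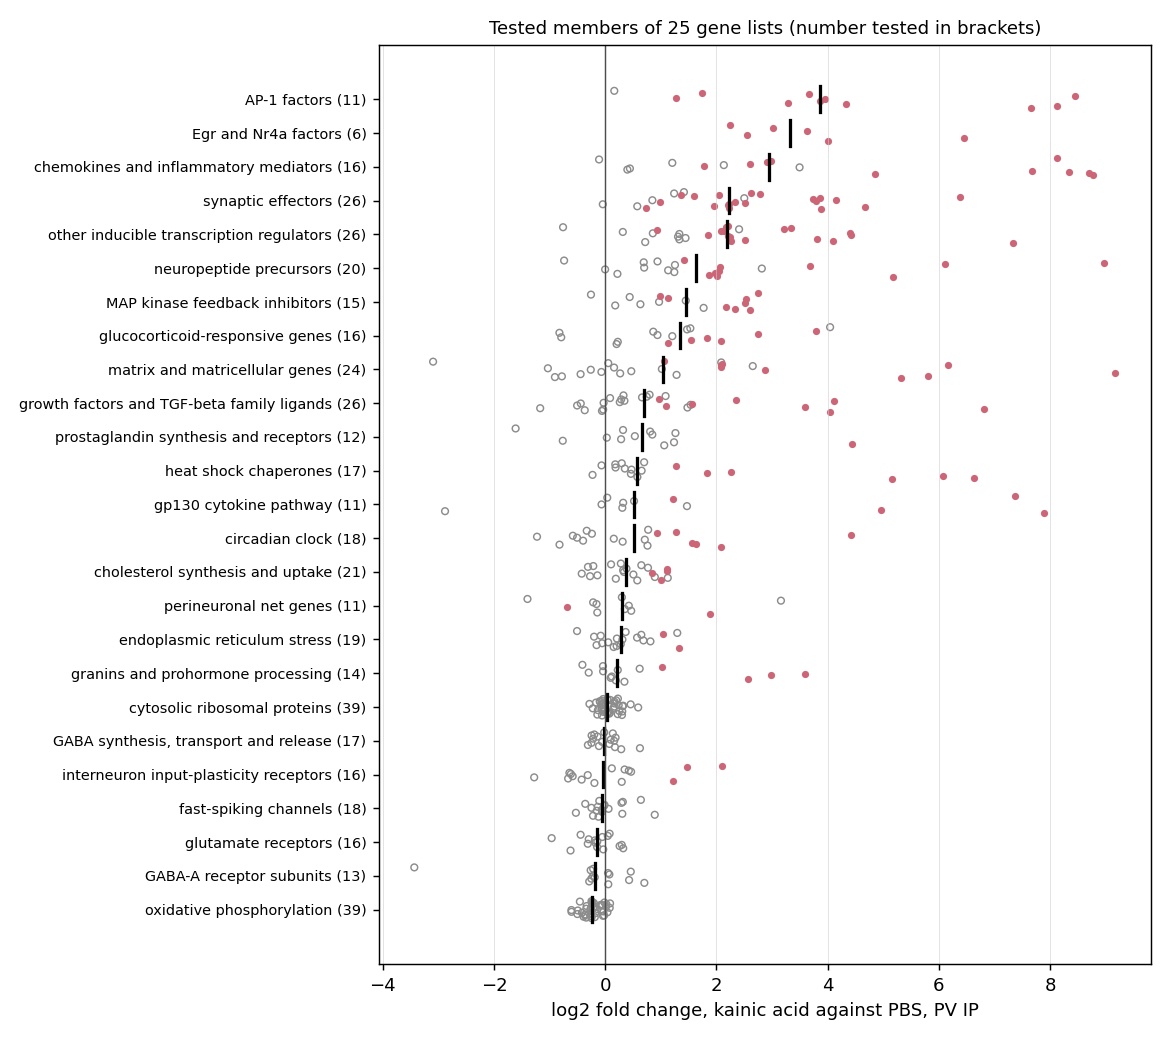
Log2 fold change (kainic acid against PBS, PV IP) of each tested member of 25 gene lists ordered by median; filled red points passed an edgeR adjusted p under 0.05, open grey points did not, and the black bar is the list's median. The AP-1 list has the highest median at 3.87 and oxidative phosphorylation the lowest at -0.23, and the lists below the somatostatin and activin receptors (fast-spiking channels, glutamate receptors, GABA-A receptors, oxidative phosphorylation) hold no called member.

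Genes of fast firing and of GABA release were not called in either direction. None of 18 fast-spiking channel genes passed in the edgeR test (median -0.06; at an unadjusted p under 0.05, 2 higher and 1 lower; 1 higher and 1 lower by DESeq2). The Kv3 channel gene Kcnc1 measured 837, 1062, 905 and 906 CPM after PBS and 817, 779, 658 and 1159.6 CPM after kainic acid, and the groups overlapped. Kcna2, a Kv1 channel subunit of the axon, lay lower without overlap at 1098, 1202, 1178 and 963 CPM after PBS and 801, 745, 716 and 823 CPM after kainic acid (log2 fold change -0.53 ± 0.16, edgeR adjusted p = 0.0701). It passed in a fit to replicates 1 to 3 (0.000863), by DESeq2 (0.0155) and with a term for replicate 4 (0.00392). Pvalb measured 118, 172, 132 and 173 CPM after PBS and 88, 84.9, 93.5 and 167 CPM after kainic acid (log2 fold change -0.45 ± 0.24, edgeR adjusted p = 0.374), where replicate 4 after kainic acid was as high as the PBS libraries, and it passed on the lower side in a fit to replicates 1 to 3 (0.0435). In that setting Pvalb, Syt2, Nek7 and Satb1 fell and 1 of the 12 PV markers rose. With all replicates 2 of 12 rose, the peptide genes Tac1 and Pthlh, and none fell, while the same libraries with a term for replicate 4 gave 2 falls, Sox6 (0.0489) and Satb1 (0.042). Tac1 and Pthlh are 16.7% of the 12, beside 4.05% over all genes tested. The summed levels given above overlapped between the groups.

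Machinery of GABA synthesis and release gave no call in 17 members by edgeR (median -0.02; at an unadjusted p under 0.05, 1 higher and 0 lower; 1 higher by DESeq2). Gad1 measured 836, 914, 856 and 879 CPM after PBS and 948, 887, 933 and 1490.4 CPM after kainic acid, with overlap. Gad2 lay higher without overlap at 803, 822, 811 and 446 CPM after PBS and 1049, 1141, 1027 and 1228 CPM after kainic acid (log2 fold change 0.63 ± 0.20, edgeR adjusted p = 0.0891). It passed by DESeq2 (0.0355), with a term for replicate 4 (0.00877) and in a fit to replicates 1 to 3 (0.0163), where Vamp1 and Syt2, proteins of vesicle fusion, fell. The vesicular GABA transporter gene Slc32a1 measured 154, 175, 183 and 164 CPM after PBS and 169, 169, 137 and 288 CPM after kainic acid, and the sign of its change turned when replicate 4 was left out. GABA-A receptor subunits and the glutamate receptors tested gave no call in 13 and 16 members by edgeR (medians -0.19 and -0.14). At an unadjusted p under 0.05 there were 2 higher and 1 lower, and 0 higher and 3 lower, and by DESeq2 none and 1 lower. In a fit to replicates 1 to 3 Gabra2 rose (0.0334) and Gabrq fell (0.0094) among the former, and Grm5 fell (0.0435) among the latter, which it also did with a term for replicate 4 (0.0388). AMPA receptor genes were not analysed here. Grm2, a presynaptic glutamate receptor, had the lowest value without overlap at 23.8, 34.8, 23.3 and 33.9 CPM after PBS and 11.4, 17.6, 15.2 and 15.2 CPM after kainic acid. For Grm2 the log2 fold change was -0.96 ± 0.30 (edgeR adjusted p = 0.0839), and it passed by DESeq2 (0.0241). The oxidative phosphorylation list holds nuclear genes only. Its median was -0.23 over 39, its summed level was 8801 to 9666 CPM after PBS and 7789 to 11453 CPM after kainic acid, and edgeR called none (0 higher and 4 lower at an unadjusted p under 0.05, none by DESeq2). With replicates 1 to 3 only 3 of them fell, Ndufs1, Ndufv2 and Atp5c1. The 7 mitochondrially encoded subunits tested, which are not in the list, had log2 fold changes from 0.37 (mt-Nd5_ND5) to 0.75 (mt-Co1_COX1), with overlapping groups, and none passed (edgeR adjusted p = 0.193 for mt-Co1_COX1). The 39 ribosomal protein genes had a median of 0.04 and no call by edgeR, DESeq2 or at an unadjusted p under 0.05.

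By deposited RPKM after kainic acid, the highest called rises were Sst, Mt2, Nefl, Scg2, Inhba, Nefm, Egr1 and Mt1. Nefl, the light neurofilament subunit, had an RPKM of 125 ± 22.9 after PBS and 227 ± 23.1 after kainic acid (mean ± SD, n = 4) and measured 747, 1054, 1057 and 657 CPM after PBS and 1669.7, 1543, 1699.8 and 1666 CPM after kainic acid. For Nefl the log2 fold change was 0.90 ± 0.18 (edgeR adjusted p = 0.00636). Nefm, the medium subunit, measured 1003, 1283, 1279.6 and 509.9 CPM after PBS and 1964, 1879.5, 1916 and 1719.8 CPM after kainic acid (log2 fold change 0.88 ± 0.23, edgeR adjusted p = 0.0397), and its call ended without kainic acid IP replicate 1, 2 or 3, or PBS IP replicate 1 (0.0809 to 0.113). In both genes PBS replicate 4 was the lowest of the 8 libraries, and both models share bases on opposite strands in the annotation, so their reads cannot be wholly told apart.

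The falls were fewer and smaller than the rises, and most of those named rest on single libraries. The 12 named falls are the largest among called genes with a mean log2 CPM of at least 3 and no overlap of the groups. Symbols of clones and predicted genes were left out. The 7 falls of at least 16-fold are not among the 12. Srl, which encodes the calcium-binding protein sarcalumenin (gene ID 106393, chromosome 16, 4480212 to 4523612, 8 exons), led the 12 named falls, at 11.1, 14.3, 27.5 and 14.3 CPM after PBS and 2.82, 1.43, 1.16 and 4 CPM after kainic acid. For Srl the log2 fold change was -2.82 ± 0.53 (edgeR adjusted p = 0.00329). Magee2, a MAGE family gene (gene ID 272790, chromosome X, 104854952 to 104857267, 1 exon), measured 57.2, 27.7, 85 and 33.4 CPM after PBS and 9.95, 12.6, 11.4 and 18.5 CPM after kainic acid. Cecr6 measured 88.1, 33.7, 33.7 and 42.6 CPM after PBS and 20.1, 11.2, 15.5 and 11.9 CPM after kainic acid. Kif26b, a kinesin-like gene, measured 43.7, 41.1, 73.9 and 37.4 CPM after PBS and 23.2, 13.3, 14 and 15.1 CPM after kainic acid. Lack of overlap holds for all 12 by the rule that picked them. In these 4 genes the call held when any 1 library was left out. PBS replicate 1 of Cecr6 was more than 2 times as high as the other PBS libraries. Carns1, the carnosine synthase, measured 20.4, 7.75, 18.6 and 10.6 CPM after PBS and 1.41, 2.06, 7.23 and 3.24 CPM after kainic acid, and its call ended without any 1 of the 8 libraries other than kainic acid IP replicate 3 (0.0531 to 0.163) (edgeR adjusted p). Msrb2, a methionine sulfoxide reductase, measured 12.1, 23.3, 14.6 and 6.78 CPM after PBS and 2.9, 3.86, 1.54 and 5.82 CPM after kainic acid, and its call ended without any 1 of the 8 libraries other than kainic acid IP replicate 4 or PBS IP replicate 4 (0.0737 to 0.203). The calls of the other 6 of the 12 named falls also ended when libraries were left out. The exons of Carns1, Gtf2ird1, Kif26b, Mrgpre and Zfp605 overlap a gene of the opposite strand, and whether the counting used strand is not given in the sources used here, so their reads cannot be told apart from those of that gene. For the transcription factor genes the calls ended as follows: Gtf2ird1 without any 1 of the 8 libraries other than kainic acid IP replicate 4 (0.0514 to 0.194), Zfp14 without any 1 of the 8 libraries other than kainic acid IP replicate 1 or 4 or PBS IP replicate 1 (0.0664 to 0.181) and Zfp605 without kainic acid IP replicate 1 or 2, or PBS IP replicate 1 or 3 (0.0692 to 0.103). For the receptor gene Mrgpre it ended without any 1 of the 8 libraries other than kainic acid IP replicate 4 (0.0516 to 0.133), for the fibrillarin-like gene Fbll1 without any 1 of the 8 libraries other than kainic acid IP replicate 4 or PBS IP replicate 3 or 4 (0.057 to 0.107) and for the olfactomedin-like gene Olfml2b without any 1 of the 8 libraries other than kainic acid IP replicate 4 or PBS IP replicate 2 or 4 (0.0604 to 0.185). Among cell type markers, the pyramidal cell transcription factor Neurod6 measured 143, 147, 141 and 165 CPM after PBS and 126, 32.7, 53.6 and 27.6 CPM after kainic acid (log2 fold change -1.32 ± 0.36, edgeR adjusted p = 0.0442), and its call ended without any 1 of the 8 libraries other than kainic acid IP replicate 1 (0.052 to 0.14). Itpka, an inositol trisphosphate kinase of dendritic spines, fell by 1.02 on the log2 scale, and its call ended without any 1 of the 8 libraries other than kainic acid IP replicate 2 or 4 or PBS IP replicate 2 (0.057 to 0.0973). Dsp, the desmosomal protein desmoplakin, which marks dentate granule cells, measured 88.6, 83.8, 118 and 29.9 CPM after PBS and 36.5, 11.2, 11.7 and 1.88 CPM after kainic acid. PBS replicate 4 overlapped the kainic acid libraries, and the call ended without any 1 of the 8 libraries other than kainic acid IP replicate 1 or 4 or PBS IP replicate 4 (0.0652 to 0.0958). The summed markers of dentate and CA2 to CA3 cells were 493 to 689.6 CPM after PBS and 529 to 718 CPM after kainic acid. Camk2a and Slc17a7, a kinase and the vesicular glutamate transporter of pyramidal cells, had log2 fold changes of 0.14 ± 0.21 and 0.13 ± 0.21 and did not pass.

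Some rises came from transcripts that were nearly or wholly absent in PBS. In 42 of the 450 rises every PBS library was at or under 1 CPM, and in 12 of these every PBS library was at 0 counts. By contrast, every PBS library was at or above 100 CPM in 59. Besides the peptide and chemokine genes above, the keratin gene Krt75 had 396 counts over the kainic acid group and 0 in PBS, at least 135.9-fold higher, and the mucin gene Muc3 was at least 58.0-fold higher. The receptor genes Bdkrb2, for bradykinin, and Drd4, for dopamine, were at least 41.9-fold and 40.2-fold higher. Serpinb2, an inhibitor of plasminogen activators, had 1 count in PBS and 739 after kainic acid, a ratio of 761 with a 95% counting interval of 136 to 30093. These 5 genes were chosen after their values were seen. Among rises with higher counts, Fndc9, a fibronectin type III domain gene, reached 192, 247, 336 and 295 CPM from 0.578, 5.32, 5.65 and 1.8 CPM (log2 fold change 6.32 ± 0.49, edgeR adjusted p = 3.97e-07), and Fgl2, a fibrinogen-like protein, 26.1, 46.9, 63.2 and 25.5 CPM from 0.578, 0.152, 0.736 and 2.16 CPM. For Fgl2 the log2 fold change was 5.45 ± 0.60 (edgeR adjusted p = 1.61e-05).

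The libraries differed in how far the response went, and not in 1 order for all genes. Among the 450 rises the highest kainic acid value lay in replicate 3 for 177 (39.3%) and in replicate 4 for 143 (31.8%), and the lowest in replicate 2 for 160 (35.6%) and in replicate 4 for 153 (34.0%). Over all genes tested replicate 4 was the highest in 29.9% and the lowest in 28.0%. Chemokines were led by replicate 3, which was the highest for 6 of the 10 rises, and neuropeptides and heat shock genes by replicate 4. In growth factors replicate 4 was the lowest for 5 of 8 rises, whereas in AP-1 factors it was the highest for 9 of 10.

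Whether the response was particular to the tagged ribosomes was asked by setting the kainic acid effect in the IP against that in the input of the same line. Few effects differed: of 11862 genes tested 1 was higher in the IP (0.00843%) and 2 lower (0.0169%) by edgeR, 0.0253% in either direction. This fit took the 16 libraries as independent, although IP and input of a pool share mice. The differences, errors and adjusted p below come from it, except where a block is named. An unadjusted p under 0.05 was found for 504 genes, and DESeq2 called 3 higher and 4 lower. Vmp1, a membrane protein of autophagy, went from 98.8 ± 6.77 to 291 ± 58.1 CPM in the IP and from 130.1 ± 11.7 to 139.7 ± 5.94 CPM in the input (mean ± SD, n = 4), a difference of 1.45 ± 0.21 on the log2 scale (edgeR adjusted p = 0.00562). Tll1, a metalloproteinase related to BMP1, went from 48.9 ± 12.9 to 102 ± 22.2 CPM in the IP and from 5.41 ± 0.788 to 62.4 ± 13 CPM in the input. The log2 effect in the IP minus that in the input was -2.47 ± 0.32 (edgeR adjusted p = 0.00244), while the level was higher in the IP in both treatments. Fam43a went from 95.2 ± 20.7 to 63.5 ± 4.32 CPM in the IP and from 14.4 ± 2.48 to 31.2 ± 5.48 CPM in the input, lower after kainic acid in one and higher in the other (difference -1.70 ± 0.28, edgeR adjusted p = 0.0265). The Fam43a call ended without any 1 of the 16 libraries other than kainic acid IP replicate 1 or 4 or PBS IP replicate 1 or 4 or kainic acid input replicate 2 or PBS input replicate 1 or 2 (0.0529 to 0.111). With the pool that IP and input share as a block, 4 effects were higher and 5 lower. In simulated data this test recovered 10% of differences of 2-fold and 54% of those of 4-fold, and 1.54% of its calls were false. For the marker genes of the response the differences were 1.76 ± 0.55 for Fosb, 1.54 ± 0.52 for Nts and 0.97 ± 0.41 for Osmr, and none of them passed (edgeR adjusted p = 1 for each).

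The same question was put to the IP of the CaMK2a line, whose Cre acts in pyramidal cells. Of 11781 genes tested the kainic acid effect was higher in the PV IP for 3 (0.0255%) and lower for 8 (0.0679%) by edgeR, 0.0934% in either direction. Of the 11781, 719 had an unadjusted p under 0.05, and DESeq2 called 20 higher and 23 lower. Egr1 went from 88.5 ± 19.9 to 1403 ± 613 CPM in the PV IP and from 549 ± 52.9 to 1733 ± 802 CPM in the CaMK2a IP (mean ± SD, n = 4 and 3). It reached a similar level from a lower PBS level, a difference of 2.33 ± 0.44 (edgeR adjusted p = 0.0432). Klf3, a Krüppel-like repressor, went from 111 ± 8.94 to 30.3 ± 3.98 CPM in the CaMK2a IP and from 119.5 ± 13.6 to 111 ± 30.0 CPM in the PV IP (difference 1.76 ± 0.29, edgeR adjusted p = 0.0135). March4, a ubiquitin ligase gene, went from 67.1 ± 2.44 to 36.3 ± 2.6 CPM in the CaMK2a IP and from 76.7 ± 16.7 to 112 ± 15.6 CPM in the PV IP (difference 1.43 ± 0.27, edgeR adjusted p = 0.0432).

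Of the 8 effects that were lower in the PV IP, the largest differences were those of Tll1, Acan and Bag3. Acan went from 9.1 ± 3.58 to 33.1 ± 15.7 CPM in the PV IP and from 0.311 ± 0.211 to 22.1 ± 10.1 CPM in the CaMK2a IP, so that its CaMK2a level started near 0 (difference -4.29 ± 0.73, edgeR adjusted p = 0.0176). Tll1 went from 48 ± 13.1 to 99.1 ± 21.7 CPM and from 1.16 ± 0.717 to 52.8 ± 19.2 CPM (difference -4.51 ± 0.49, edgeR adjusted p = 0.000163). Bag3, a cochaperone of Hsp70, went from 19.3 ± 5.15 to 68 ± 14.1 CPM and from 5.83 ± 0.543 to 205 ± 30.2 CPM (difference -3.31 ± 0.32, edgeR adjusted p = 4.88e-05), a larger response in the CaMK2a IP of a gene that also rose in the PV IP. Pcdh8, an activity-induced protocadherin, went from 20.2 ± 4.57 to 137 ± 11 CPM and from 10.6 ± 1.35 to 244 ± 21.7 CPM (difference -1.77 ± 0.26, edgeR adjusted p = 0.00614). Lbh, a transcription cofactor, went from 114 ± 18.8 to 234 ± 22.2 CPM and from 16 ± 3.09 to 155 ± 76 CPM (difference -2.25 ± 0.36, edgeR adjusted p = 0.0131). Cgref1, a secreted EF-hand protein gene, went from 25.2 ± 7.38 to 58.3 ± 11.9 CPM and from 8.79 ± 0.731 to 91 ± 17.1 CPM (difference -2.17 ± 0.34, edgeR adjusted p = 0.0125). In the means Ubash3b, a tyrosine phosphatase, and Fam43a lay lower after kainic acid in the PV IP and higher in the CaMK2a IP, with differences of -2.10 ± 0.35 and -1.79 ± 0.28 (edgeR adjusted p = 0.0135 and 0.0125). The exons of Klf3 and Pcdh8 overlap a gene of the opposite strand. The calls of Tll1 and Bag3 held when any 1 of the 14 libraries was left out. That of Egr1 ended without any 1 of the 14 libraries other than PV kainic acid IP replicate 2 or 4 or CaMK2a kainic acid IP replicate 1 (0.0579 to 0.213), and that of March4 without any 1 of the 14 libraries other than PV kainic acid IP replicate 1 or 4 or PV PBS IP replicate 2 or 3 (0.0529 to 0.213) (edgeR adjusted p throughout). The Klf3 and Acan calls ended without CaMK2a kainic acid IP replicate 3, or CaMK2a PBS IP replicate 1, 2 or 3 (0.0561 to 0.103) and without CaMK2a kainic acid IP replicate 3, or CaMK2a PBS IP replicate 1, 2 or 3 (0.066 to 0.134). Those of Cgref1, Ubash3b, Lbh, Fam43a and Pcdh8 ended without CaMK2a kainic acid IP replicate 3, or CaMK2a PBS IP replicate 1, 2 or 3 (0.059 to 0.0788), without CaMK2a PBS IP replicate 1 (0.0907), CaMK2a PBS IP replicate 2 (0.066) or CaMK2a PBS IP replicate 3 (0.059), without CaMK2a PBS IP replicate 1 (0.0811) or CaMK2a PBS IP replicate 2 (0.066), without CaMK2a PBS IP replicate 2 (0.066) or CaMK2a PBS IP replicate 3 (0.059) and without CaMK2a PBS IP replicate 2 (0.0573). For this test the simulated recovery was 12% at 2-fold and 53% at 4-fold, and 8.45% of the simulated calls were false. The lines also differed in pool size and in the amount of RNA amplified, which cannot be told apart from the Cre line.

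**Figure D4:**
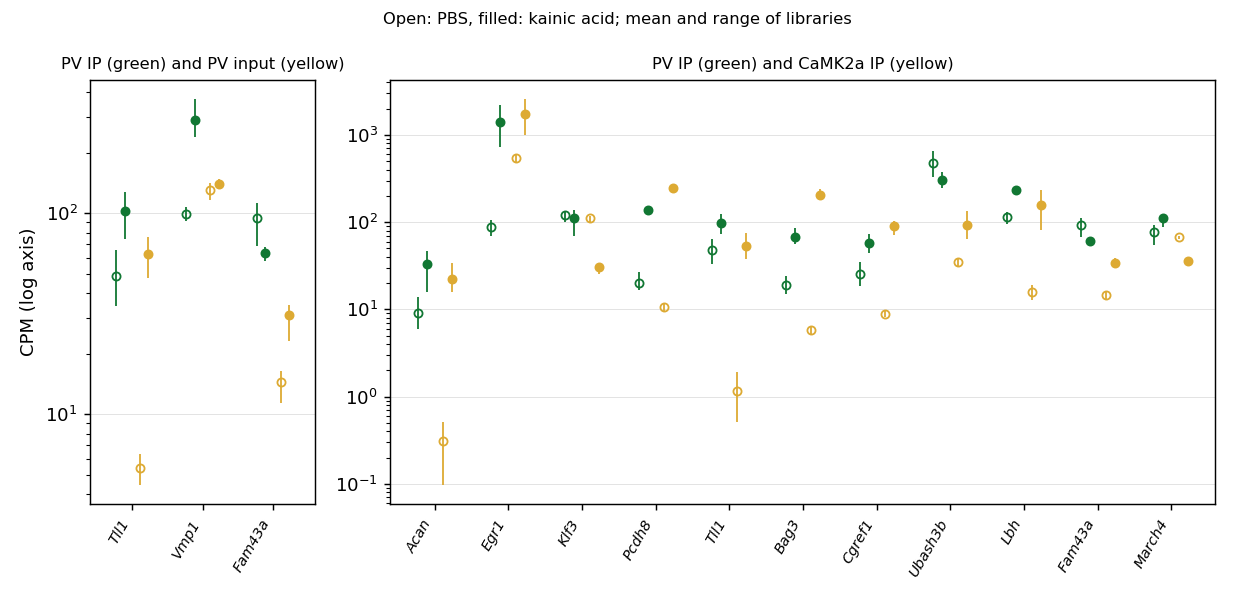
Mean CPM (log axis) with bars for the lowest and highest library, after PBS (open) and after kainic acid (filled), for the genes whose effect differed between the PV IP (green, n = 4) and the PV input (yellow, n = 4, left) or the CaMK2a IP (yellow, n = 3, right). Acan and Tll1 start far lower in the CaMK2a IP than in the PV IP, and Klf3 and March4 go down in the CaMK2a IP while they change little or rise in the PV IP.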

How the data were processed

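The authors deposited, per gene, raw read counts and RPKM for each library, with the fold ratio and FDR (adjusted p-value) of their own comparison, per the file headers. BWA, edgeR and the mouse build mm10 (GRCm38) are named in the submitters' processing notes, and their versions and the counting of strand are not given in the sources used here. Tables of genes higher and lower were joined, and columns were mapped to samples by name. The deposited counts were filtered with filterByExpr (at least 10 counts), scaled by TMM and tested with edgeR 4.0.16 (quasi-likelihood test, limma 3.58.1, R 4.3.3) with Benjamini-Hochberg adjustment, for kainic acid against PBS over the 8 PV IP libraries, and as the difference of that effect from the one in the PV input (16 libraries) and the CaMK2a IP (14 libraries). DESeq2 1.42.0, other scalings, filters, blocks and the omission of libraries were alternatives. Tests were checked on simulated data, where 11 of 115 calls (9.57%) were false in the 8 PV IP libraries over 10896 genes. Nothing in the labels ties pools to litters or days. The p-values measure the spread between pools. What replicate 4 of both treatments had in common is part of that spread, because the main fit holds no term for it. Intervals and floors cover counting error only.

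Genes were named by a rule. Among called genes with a mean log2 CPM of at least 3 and no overlap of the groups, it took the 20 largest rises and the 12 largest falls. The 8 called rises without overlap that had the highest RPKM were added whatever their mean CPM. From each list up to 4 called members with the largest change were taken, with no condition on level or overlap. Up to 8 differences in each direction, at a mean log2 CPM of at least 3, and a set of marker genes completed it. Symbols of clones and predicted genes were left out of the ranked sets. Further list members are named for their place in the lists, and which of them are described was chosen after their values were seen. The 35 lists of 655 genes, of which 561 were tested, and the comparison itself were chosen with earlier results of these data known. The summed markers of interneurons of all classes were 3110.3 to 3545 CPM after PBS and 3277 to 4854 CPM after kainic acid, with none of 11 called by edgeR (1 higher and 2 lower at an unadjusted p under 0.05, 1 higher by DESeq2), and those of endothelial and mural cells 48.6 to 66.7 CPM after PBS and 58.6 to 87.5 CPM after kainic acid, with none of 13 called (none at an unadjusted p under 0.05 or by DESeq2). Of 11 oligodendrocyte lineage markers edgeR called none (1 higher and 0 lower at an unadjusted p under 0.05, 1 higher by DESeq2). Of 111 named genes found in GENCODE M21, 26 have exons that overlap a gene of the opposite strand. Only some of the 26 are marked where they are described. For all of them the reads cannot be told apart from those of the other gene, since the counting of strand is not known. Input and IP of a pool come from the same mice, which pairs them by design. Deviations of same-pool IP and input libraries correlated at 0.069 to 0.393 after kainic acid and 0.042 to 0.398 after PBS, across genes. The upper ends are replicate 4, which also correlated between treatments, at 0.345 for the kainic acid IP and PBS input. In replicates 1 to 3 same-pool values were 0.069 to 0.126 after kainic acid, against 0.008 to 0.049 for different numbers. After PBS they were 0.042 to 0.076, against 0.039 to 0.083, so no pairing showed there. Sequences are from RefSeq (GRCm38.p6), where 8766 of the 11107 genes tested had an upstream entry.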

Additional observations from a re-analysis of the deposited data

Results flagged for a closer look

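In 5 of 78 groups of 4 libraries (39 genes) 1 library stood far from the other 3, where chance gives about 1 in 20. Atf3 was at 1.23 CPM in PBS replicate 3, and Lif at 0.216 CPM in PBS replicate 4 with 0 in the others. Fos was at 939 CPM in kainic acid replicate 4, above the others, and Inhba at 716 CPM in the same library, below the others. Cecr6 was at 88.1 CPM in PBS replicate 1.

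The kainic acid effect differed between libraries of different kinds in 14 tests of the difference itself (edgeR, adjusted p under 0.05). Against the PV input the log2 differences were -2.47 for Tll1, -1.70 for Fam43a and 1.45 for Vmp1. Against the CaMK2a IP they were -4.51 for Tll1, -4.29 for Acan, -3.31 for Bag3, -2.25 for Lbh, -2.17 for Cgref1, -2.10 for Ubash3b, -1.79 for Fam43a and -1.77 for Pcdh8, and 2.33 for Egr1, 1.76 for Klf3 and 1.43 for March4. Tll1 and Fam43a appear in both comparisons, which share the PV IP libraries.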

How the results depend on the processing

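Of the 100 called genes that the naming rule picked, 76 stayed past the threshold under every alternative, 24 did not under at least 1, and none changed direction. In the PV IP, 776 transcripts rose and 285 fell in a fit to all 4 PV groups, 681 and 250 with a term for replicate 4, 662 and 209 by DESeq2, and 577 and 178 with replicates 1 to 3 only. Between kainic acid and PBS the deviations of same-number IP libraries correlated at 0.050, 0.035, 0.053 and 0.362 across genes. Replicate 4 of the 2 treatments thus deviated together, and replicates 1 to 3 did not show a pairing of the numbers. Deviations were taken from the mean of each group, which by itself lowers the values of replicate 4 with other numbers (-0.124 to -0.096). With a replicate block 651 rose and 248 fell. Leaving out 1 library gave 329 to 586 rises and 30 to 164 falls. For the difference from the PV input, DESeq2 gave 3 higher and 4 lower, replicates 1 to 3 gave 4 and 6, the replicate block gave 4 and 5, and leaving out 1 library gave 1 to 1 and 1 to 2. For the difference from the CaMK2a IP, DESeq2 gave 20 higher and 23 lower, replicates 1 to 3 gave 31 and 39, the replicate block gave 14 lower, and leaving out 1 library gave 0 to 6 and 2 to 18. The cause of these shifts was not tested. Genes that had not passed and changed sign were Klf3 (log2 fold change 0.005 with replicates 1 to 3, and -0.212 to 0.068 when 1 library was left out), Slc32a1 (-0.102 with replicates 1 to 3, and -0.091 to 0.306), Cx3cr1 (-0.219 to 0.189) and Mbp (-0.031 with upper-quartile factors, and -0.078 to 0.284). Depth limits genes of few counts in PBS, whose fold changes are bounds or carry wide counting intervals.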
